A study of Homo sapiens with 10 samples.

Results

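The 42 genes described here act in G2 and mitosis, and were taken by symbol from a list of such genes. Each was read from its brightest probe set, by mean log2 over the 10 arrays. All 42 were present among the 19775 genes of the arrays, all passed the filter on low signal that left 12515 genes for testing, and all lay above the array's median signal on each of the 10 arrays. The arrays measured RNA of 2 non-small cell lung carcinoma lines, A549, which is K-Ras mutant, and H1650, which is EGFR mutant. The siRNA was directed at ID1, whose protein lacks a DNA-binding region and pairs with transcription factors of the bHLH class, which then cannot bind DNA. For either line there were 5 arrays, n = 1 for each of these conditions: control siRNA with no stimulus, control siRNA with nicotine, control siRNA with EGF, ID1 siRNA with nicotine, and ID1 siRNA with EGF. EGF is the ligand of the EGF receptor, and nicotine acts on nicotinic acetylcholine receptors. All cells, controls included, had been kept without serum for 48 h. Stimulated cells then received 1 µM nicotine or 100 ng/ml EGF for 18 h. ID1 siRNA was never used without a stimulus, so each ID1 siRNA array was matched to the control array of the same line and stimulus.

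Mitosis genes are transcribed in a wave that starts in late S phase and peaks in G2 and M. CDK1 with cyclins A and B drives entry, PLK1 and the Aurora kinases build and correct the spindle, and the spindle checkpoint holds the anaphase-promoting complex until every kinetochore is attached. The complex then degrades cyclin B and securin, and kinesins and midzone proteins part the chromosomes and the cells. In resting cells the promoters of these genes are held silent by the DREAM complex, whose MuvB core binds the cell cycle genes homology region (TTTGAA, or the variant TTTAAA), often beside CCAAT boxes bound by NF-Y. In cycling cells MuvB acts with B-MYB and FOXM1 instead. Serum starvation followed by a mitogen is the classical way to take cultured cells out of this state and back into it.

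The promoters are shown because most members moved together. The RefSeq table of promoters (GRCh38.p14) held 41 start sites for 35 of the 42 members, and none for AURKA, PBK, TTK, UBE2C, FOXM1, BIRC5 and TPX2. In the 250 bases before the start, read on both strands, the CCAAT box was found (as read, or as its reverse complement) in 32 of 41 promoters (78.0%), against 32.7% of the 14846 promoters of tested genes and 32.0% of all 35116 entries of the table. TTTGAA was found in 48.8% of the members' promoters, against 9.23% of those of tested genes and 13.3% of all entries. TTTAAA was found in 31.7%, against 7.98% and 11.3%. CCAAT together with TTTGAA or TTTAAA was present in 24 of 41 (58.5%), against 5.74% of promoters of tested genes and 7.64% of all entries. The 94 promoters of other mitosis genes held TTTGAA in 31.9%, TTTAAA in 7.45%, CCAAT in 54.3% and CCAAT with TTTGAA or TTTAAA in 25.5%. The 53 promoters of genes of G1/S and DNA replication held TTTGAA in 3.77%, TTTAAA in 11.3% and CCAAT in 54.7%. The E box CANNTG, the kind of site bound by the factors that ID1 keeps off DNA, was present in 65.9% of the members' promoters, against 54.7% and 61.8%, and its form CACCTG in 17.1%, against 16.2% and 17.5%. These are matches of letters and show neither binding nor a cause, and the motifs can overlap, since TTTAAA reads the same on both strands and a CCAAT box can overlap one on the other strand, a TTTGAA or an E box. The 8 promoters below are those of HMMR, CCNB2, CDC20 and CENPF, which are among the members whose response to the siRNA was called in opposite directions in the lines, of PRC1 and KIF20A, which had the largest change in A549 and in H1650, of the proliferation marker MKI67, and of NDC80, which differed most in level. Each line gives the 150 bases before the start, 5′ to 3′ on the gene's strand, with the CCAAT box and both forms of the homology region, on either strand, in capitals.
HMMR (chr5:163460482-163460631, + strand): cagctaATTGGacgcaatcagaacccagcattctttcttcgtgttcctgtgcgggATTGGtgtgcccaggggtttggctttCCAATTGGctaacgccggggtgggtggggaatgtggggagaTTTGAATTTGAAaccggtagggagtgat
CCNB2 (chr15:59104996-59105145, + strand): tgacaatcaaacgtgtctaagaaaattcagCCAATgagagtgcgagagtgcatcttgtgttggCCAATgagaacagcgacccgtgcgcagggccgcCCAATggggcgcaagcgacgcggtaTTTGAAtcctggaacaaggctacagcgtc
CDC20 (chr1:43358831-43358980, + strand): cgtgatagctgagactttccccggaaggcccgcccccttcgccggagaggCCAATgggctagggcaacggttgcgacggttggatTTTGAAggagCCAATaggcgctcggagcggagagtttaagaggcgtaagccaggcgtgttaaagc
CENPF (chr1:214603045-214603194, + strand): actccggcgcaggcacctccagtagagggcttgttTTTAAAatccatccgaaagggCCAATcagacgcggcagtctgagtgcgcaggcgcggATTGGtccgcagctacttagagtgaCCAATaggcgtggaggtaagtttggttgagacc
PRC1 (chr15:90994536-90994685, - strand): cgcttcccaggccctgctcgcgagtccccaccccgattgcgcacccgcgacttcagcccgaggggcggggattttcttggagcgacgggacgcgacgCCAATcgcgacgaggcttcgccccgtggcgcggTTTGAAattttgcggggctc
KIF20A (chr5:138178962-138179111, + strand): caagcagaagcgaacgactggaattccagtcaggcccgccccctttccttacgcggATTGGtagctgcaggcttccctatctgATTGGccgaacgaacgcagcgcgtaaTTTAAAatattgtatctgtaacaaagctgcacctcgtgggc
MKI67 (chr10:128126424-128126573, - strand): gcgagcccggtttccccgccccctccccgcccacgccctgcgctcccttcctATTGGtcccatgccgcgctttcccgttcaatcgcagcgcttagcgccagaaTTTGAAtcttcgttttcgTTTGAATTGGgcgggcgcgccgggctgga
NDC80 (chr18:2571407-2571556, + strand): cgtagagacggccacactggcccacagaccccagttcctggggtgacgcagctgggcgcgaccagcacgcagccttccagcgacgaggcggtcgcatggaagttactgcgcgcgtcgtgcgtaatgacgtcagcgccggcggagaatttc
In HMMR, CCNB2, CDC20, PRC1 and MKI67 a TTTGAA lay downstream of a CCAAT box and nearer to the start. CENPF and KIF20A held TTTAAA with CCAAT boxes, and the NDC80 stretch held none of the 3 motifs. Over the 35 members with a start site, 22 had a promoter with a CCAAT box and TTTGAA or TTTAAA, and 4 had neither kind of motif.

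As a check of the knockdown, the ID1 signal in A549 was 1645 unstimulated, 3719.8 and 3049 in the nicotine and EGF controls, and 1343 on both ID1 siRNA arrays. In H1650 it was 5029.9, 4964 and 5121 on the 3 controls and 881 and 1031 with ID1 siRNA. The A549 array labelled unstimulated control thus lay near the ID1 siRNA arrays of that line, and the H1650 one did not. Array medians lay between 61.2 and 79.6. In A549 they were 66.1, 65.2 and 61.2 on the unstimulated, nicotine and EGF controls and 78.5 and 75.9 with ID1 siRNA. In H1650 they were 73.5, 79.3 and 73.8 on the controls and 79.6 and 78.9 with ID1 siRNA. The 3′ to 5′ ratio of GAPDH probe sets, which rises as RNA degrades, lay between 0.887 and 0.945. The same ratio of ACTB parted the lines, at 1.43 to 1.52 on the A549 arrays and 1.23 to 1.33 on the H1650 arrays. All 5 epithelial markers passed the filter, with summed signals of 55502 to 100613, and of the markers of other cell types 0 of 3 for blood, 1 of 3 for endothelium and 1 of 3 for fibroblasts did. The summed fibroblast markers, of which COL1A1 alone passed, were higher on the ID1 siRNA arrays than on their controls, at 745 and 719 against 418 and 292 in A549 and 1043 and 714 against 590.0 and 539.6 in H1650, and the summed endothelial markers likewise, at 368 and 327 against 177 and 184 in A549 and 420 and 373 against 336 and 176 in H1650. Their part in the results was not tested. No label says that arrays came from separate cultures, so no test rests on a spread between replicates. For siRNA, and for EGF against nicotine, the spread is how the siRNA change differed between the stimuli of a line. For stimulus against none over both lines, it is how the change differed between the lines. For A549 against H1650, it is how the difference varied over the 5 conditions, the siRNA response included. Errors are standard errors of limma, whose moderated tests borrow spread from genes of similar signal, and a call is a Benjamini-Hochberg adjusted p under 0.05 over all 12515 genes.

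Knockdown of ID1 went with less mitotic RNA in A549 and more in H1650. In A549, 28 of 42 members fell and 0 rose, with a median log2 change of -0.44, or 1.36-fold lower. Of all tested genes 25.3% were called in A549, 11.4% lower and 13.8% higher. In H1650, 29 of 42 rose and 0 fell, with a median of 0.48 on the log2 scale, where 12.3% of tested genes were called, 5.64% higher and 6.66% lower. The response itself differed between the lines for 39 members, all lower in A549, with a median difference of -0.93, against 11.9% of tested genes called, 4.92% lower and 6.98% higher. CDC25C, CENPA and CENPE were the members whose difference was not called, at -0.38 ± 0.24, -0.80 ± 0.22 and -0.57 ± 0.16. Of the 42, 36 were lower in both A549 pairs and higher in both H1650 pairs, which 9.3% of tested genes were. In A549 alone 37 were lower in both pairs, against 33.7% of tested genes, and in H1650 alone 41 were higher in both, against 33.2%. The other 6 were AURKB, CCNA2, CDC25C, KIF20A, CENPA and ANLN. Scaling moved the siRNA comparison in A549 as a whole, where array medians were higher with ID1 siRNA than on the controls. With each array centred on its median, the median change of all tested genes in A549 went from 0.05 to -0.23. The genes called went from 1733 higher and 1428 lower to 948 higher and 3966 lower. The members' median went to -0.73, with 37 called lower and 0 higher. The same centring took the genes called in the difference from 874 higher and 616 lower to 624 higher and 1809 lower, with 41 members lower, and those in H1650 from 706 higher and 834 lower to 617 higher and 1128 lower, with 28 members higher. In bulk RNA, fewer cells in G2 and M and less RNA per cell cannot be told apart.

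**Figure D1:**
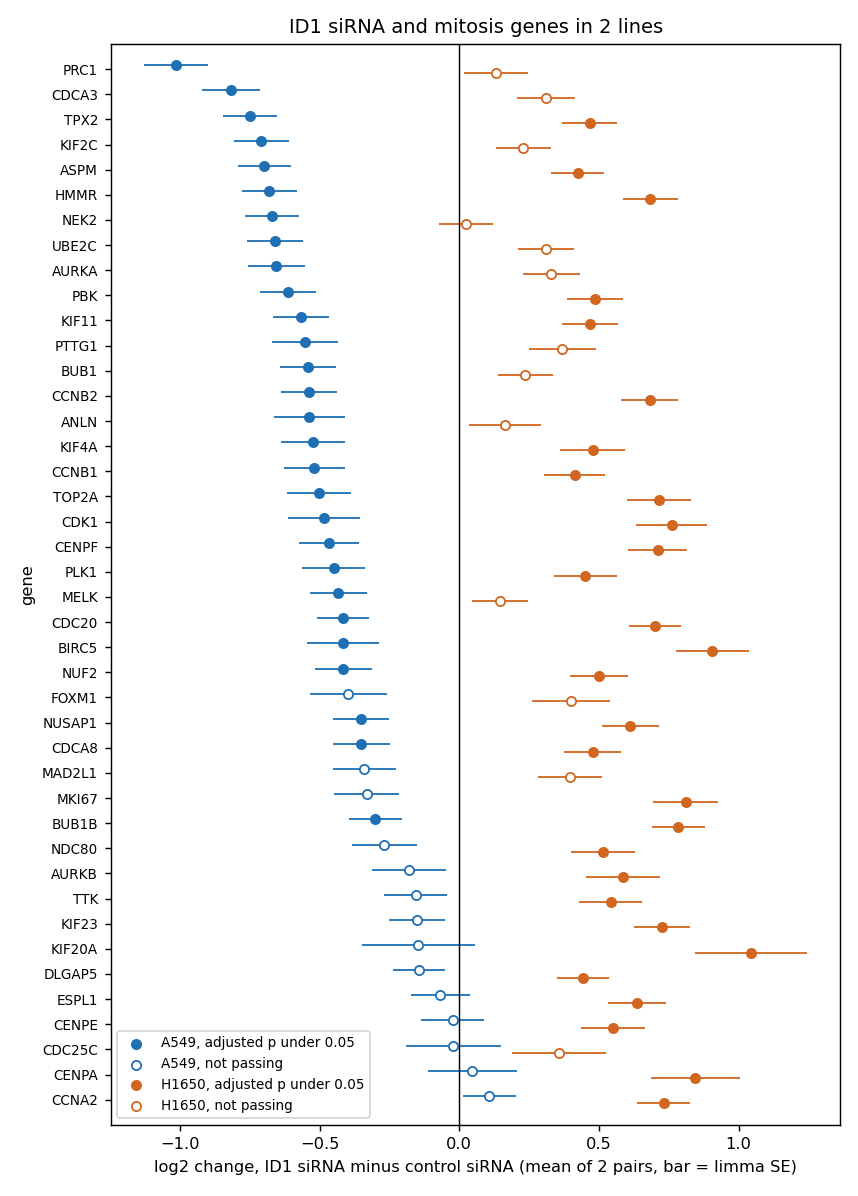
Log2 change with ID1 siRNA (x axis) for the 42 genes (y axis, ordered by the change in A549), as the mean of the nicotine and EGF pairs with limma's standard error as a bar. Blue is A549 and orange H1650, and filled points passed the test. The blue points run from -1.01 for PRC1 to 0.11 for CCNA2 and the orange ones from 0.02 for NEK2 to 1.04 for KIF20A.

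These calls lean on the intensity trend, by which limma takes the spread expected of a gene from genes of similar signal. Without it 10 members were called lower in A549, 0 higher in H1650 and 1 in the difference. Of tested genes 11.1%, 0.00799% and 1.59% were called there. The trend enters the spread alone, so the changes themselves are the same with and without it. Without the A549 EGF pair 17 members were called lower in A549, with 12.7% of tested genes called, and without the H1650 EGF pair 15 were called higher in H1650, with 10.5% called. BUB1 (-0.52, adjusted p = 0.0512) and TOP2A (-0.36, adjusted p = 0.108) were among those not called in A549 without its EGF pair, and CDK1 (0.67, adjusted p = 0.128) among those not called in H1650 without its own.

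Among the 7 kinases with no checkpoint role listed, 6 of 7 fell in A549 and 4 of 7 rose in H1650, and the response of all 7 differed between the lines. CDK1, the kinase that drives entry into mitosis, had signals in A549 of 12398, 13348 and 18128 on the unstimulated, nicotine and EGF controls and 10621 and 11634 with ID1 siRNA under nicotine and EGF. In H1650 they were 8604, 7211 and 5816 on the controls and 11448 and 10507.5 with ID1 siRNA. The ID1 siRNA arrays were the lowest of their line in A549 and the highest in H1650, and the lines, which did not overlap among controls, overlapped there. CDK1 fell by 0.48 ± 0.13 in A549 (adjusted p = 0.0256) and rose by 0.76 ± 0.13 in H1650 (0.00782). NEK2, a centrosome kinase, fell in A549 by 0.67 ± 0.10 (adjusted p = 0.00182), from 3995 and 3928 to 2365 and 2617, while in H1650 it was at 3556 and 3007 against 3585 and 3081, a change of 0.02 ± 0.10 (0.916). AURKA and MELK likewise fell in A549 and were not called in H1650. AURKB, the kinase of the chromosomal passenger complex, showed the reverse: -0.18 ± 0.13 in A549, not called, and a rise of 0.59 ± 0.13 in H1650 (adjusted p = 0.0234). PLK1 and PBK were called in both lines. With the kinases of the spindle checkpoint counted too, 8 of 10 fell in A549, 6 of 10 rose in H1650, and the response of all 10 differed.

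Of the cyclins and entry regulators, 3 of 6 fell in A549 and 3 of 6 rose in H1650. CCNB2, a B-type cyclin, had signals of 4209, 4884 and 4918 on the A549 controls and 3478 and 3272 with ID1 siRNA, and of 3804, 3494 and 2899 on the H1650 controls and 5240.1 and 4969 with ID1 siRNA. Its ID1 siRNA arrays lay outside the range of the controls on opposite sides. CCNB2 fell by 0.54 ± 0.10 in A549 (adjusted p = 0.00582) and rose by 0.68 ± 0.10 in H1650 (0.00479), and CCNB1 was called in both lines as well. CCNA2, which acts in S phase and G2, was not called in A549 (0.11 ± 0.09) and rose by 0.73 ± 0.09 in H1650 (adjusted p = 0.00291). Its H1650 signals were 3168, 3174 and 2705 on the controls and 5217 and 4543 with ID1 siRNA. CDCA3, a trigger of mitotic entry that helps to degrade WEE1, had the second largest fall in A549, from 3736 and 3511 to 2019 and 2089, which is 0.82 ± 0.10 on the log2 scale (adjusted p = 0.00100). It was at 0.31 ± 0.10 in H1650, not called. FOXM1, the transcription factor of the wave, was called in neither line (-0.40 ± 0.14 with adjusted p = 0.0678, and 0.40 ± 0.14 with 0.101), but its response differed between them by -0.80 ± 0.20 (0.0347). CDC25C, the phosphatase that activates CDK1, was called in no siRNA comparison.

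All 4 spindle checkpoint genes differed in response between the lines, with 2 of 4 called lower in A549 and 2 of 4 called higher in H1650. BUB1B, which encodes BubR1, an inhibitor of the anaphase-promoting complex, had signals of 2365, 2527 and 2567 on the A549 controls and 2037 and 2101 with ID1 siRNA. In H1650 the controls were at 2079, 2212 and 1936 and the ID1 siRNA arrays at 3631 and 3496. It rose by 0.78 ± 0.10 in H1650 (adjusted p = 0.00241) and fell by 0.30 ± 0.10 in A549 (0.0489). The kinase BUB1 was the largest fall of the group in A549, 0.54 ± 0.10 (adjusted p = 0.00533), at 1361 and 1317 against 951 and 890.1, and stood at 0.24 ± 0.10 in H1650, not called. Its other probe set above the filter was lower in A549 as well, at -0.78; the mean of all 5 was 0.35, not called, with the 3 probe sets under the filter at 1.19, 0.77 and 1.13. TTK, the kinase that starts checkpoint signalling, rose in H1650 by 0.54 ± 0.11 and was at -0.16 ± 0.11 in A549. MAD2L1, which encodes MAD2, was called in neither line.

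All 4 genes of the anaphase-promoting complex and its targets differed between the lines too, and 3 of 4 fell in A549. CDC20, the activator of the complex, was at 1932, 2368 and 2995 on the A549 controls and 1749.7 and 2275 with ID1 siRNA, where the arrays overlap across stimuli. In H1650 it was at 3142, 3304 and 2881 on the controls and 5178 and 4858 with ID1 siRNA, with no overlap. It fell by 0.42 ± 0.09 in A549 (adjusted p = 0.0134) and rose by 0.70 ± 0.09 in H1650 (0.00337). UBE2C, the ubiquitin-conjugating enzyme of the complex, fell by 0.66 ± 0.10 in A549 (adjusted p = 0.00222) and was at 0.31 ± 0.10 in H1650. PTTG1, securin, fell in A549, and ESPL1, separase, the protease that securin restrains, rose in H1650. PTTG1, FOXM1 and CENPA were read by probe sets of a class that can bind related transcripts, and PTTG1 has close relatives.

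Of the 6 kinesins, 3 fell in A549 and 5 rose in H1650. KIF20A, a midzone kinesin, had the largest rise in H1650, from 1407 and 995 to 2309 and 2579, or 1.04 ± 0.20 (adjusted p = 0.0130), with the unstimulated control at 1117. In A549 it was at 1809, 1451 and 1558 on the controls and 1732 and 1066 with ID1 siRNA, so the pairs moved in opposite directions, and its standard error was the largest of all members. Without the A549 EGF pair its difference between the lines was -0.79, against -1.19 with it, and was not called. KIF2C, which depolymerises microtubules at centromeres, fell by 0.71 ± 0.10 in A549 (adjusted p = 0.00154), with signals of 1949.8 and 1939 against 1165 and 1215, and was at 0.23 ± 0.10 in H1650. The unstimulated A549 control, at 1198, lay between the ID1 siRNA arrays. On a second, dimmer probe set KIF2C was at -0.22 in A549. KIF23, of the centralspindlin complex, rose by 0.73 ± 0.10 in H1650 and was at -0.15 ± 0.10 in A549, where a second, dimmer probe set was at 0.63. KIF11, which separates the spindle poles, and the chromokinesin KIF4A were called in both lines, and CENPE, the kinetochore kinesin, rose in H1650.

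All 4 kinetochore and centromere genes rose in H1650, and 2 of 4 fell in A549. CENPF was at 1924, 2280.0 and 2206 on the A549 controls and 1765 and 1495 with ID1 siRNA, and in H1650 at 2384, 2134 and 1877 on the controls and 3212 and 3336 with ID1 siRNA. Neither line had an overlap. It fell by 0.47 ± 0.11 in A549 (adjusted p = 0.0141) and rose by 0.71 ± 0.11 in H1650 (0.00517). Its other 2 probe sets, 1 of which passed the filter, were at 0.18 in A549 and higher in H1650 (0.45 and 1.32), so its fall in A549 rests on the brightest one, and it was not called without the A549 EGF pair (-0.37, adjusted p = 0.152). CENPA, the histone H3 variant of centromeres, rose by 0.84 ± 0.16 in H1650 (adjusted p = 0.0119), from 717 and 692 to 1424 and 1125, while in A549 one pair was lower and the other higher. NUF2 was called in both lines, and NDC80, its partner in the microtubule-binding complex, in H1650.

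Both chromosomal passengers were called in both lines. BIRC5, survivin, was at 2857, 3271 and 2834 on the A549 controls and 2036 and 2556.5 with ID1 siRNA, and at 2827, 2669 and 2390.4 on the H1650 controls and 4921 and 4554 with ID1 siRNA. It rose by 0.91 ± 0.13 in H1650 (adjusted p = 0.00423) and fell by 0.42 ± 0.13 in A549 (0.0461). In H1650 its other 3 probe sets were higher too, at 1.01, 0.65 and 0.37, but in A549 they were at 0.12, -0.01 and 0.33, so the fall in A549 rests on the brightest probe set. It rests on the nicotine pair too, since without it the change in A549 was -0.15 and not called (adjusted p = 0.503), and without the EGF pair it was -0.68. CDCA8, borealin, fell by 0.35 ± 0.10 in A549 and rose by 0.48 ± 0.10 in H1650.

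The genes of the spindle, midzone and cytokinesis had the lowest median of the roles in A549, -0.68, with 6 of 7 called, and 5 of 7 rose in H1650. PRC1, which bundles midzone microtubules, had the largest fall of all members, from 6890.0 and 7953 to 3825 and 3508 with ID1 siRNA, which is 1.01 ± 0.11 on the log2 scale or 2.02-fold (adjusted p = 0.000543). In H1650 it was at 4579.7 and 4178 against 4758 and 4829.8, a change of 0.13 ± 0.11 (0.521), and the unstimulated control was the highest H1650 array at 5405. HMMR, a spindle and microtubule protein, had the largest difference between the lines at -1.36 ± 0.14 (adjusted p = 0.000689). It was at 4501, 6115 and 7681 on the A549 controls and 4039.7 and 4529 with ID1 siRNA, and in H1650 at 2667, 2153 and 2331 on the controls and 3570.1 and 3624 with ID1 siRNA. A549 was thus above H1650 on every array, with a gap that was narrow with ID1 siRNA and wide in the stimulated controls. TPX2, the activator of Aurora A, fell by 0.75 ± 0.10 in A549 (adjusted p = 0.00117) and rose by 0.47 ± 0.10 in H1650 (0.0179). ASPM, of the spindle poles, and NUSAP1 were called in both lines. The other ASPM probe sets were at -0.07 and 0.06 in A549, so its fall there rests on the brightest one. ANLN, the cytokinesis scaffold, fell in A549 and was the one member that was not higher in both H1650 pairs.

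Of the chromosome proteins, TOP2A, the topoisomerase that untangles sister chromatids, was at 9664, 9586 and 12404 on the A549 controls and 7467 and 7953 with ID1 siRNA. It was at 5279.9, 5219 and 4585 on the H1650 controls and 8583 and 7522 with ID1 siRNA. It fell by 0.50 ± 0.11 in A549 (adjusted p = 0.0140) and rose by 0.72 ± 0.11 in H1650 (0.00634). MKI67, the Ki-67 antigen, was at 1823 and 1736 against 1403 and 1425 in A549, not called at -0.33 ± 0.12 (0.0680), and at 1721 and 1432 against 2641 and 2867 in H1650, a rise of 0.81 ± 0.12 (0.00425).

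**Figure D2:**
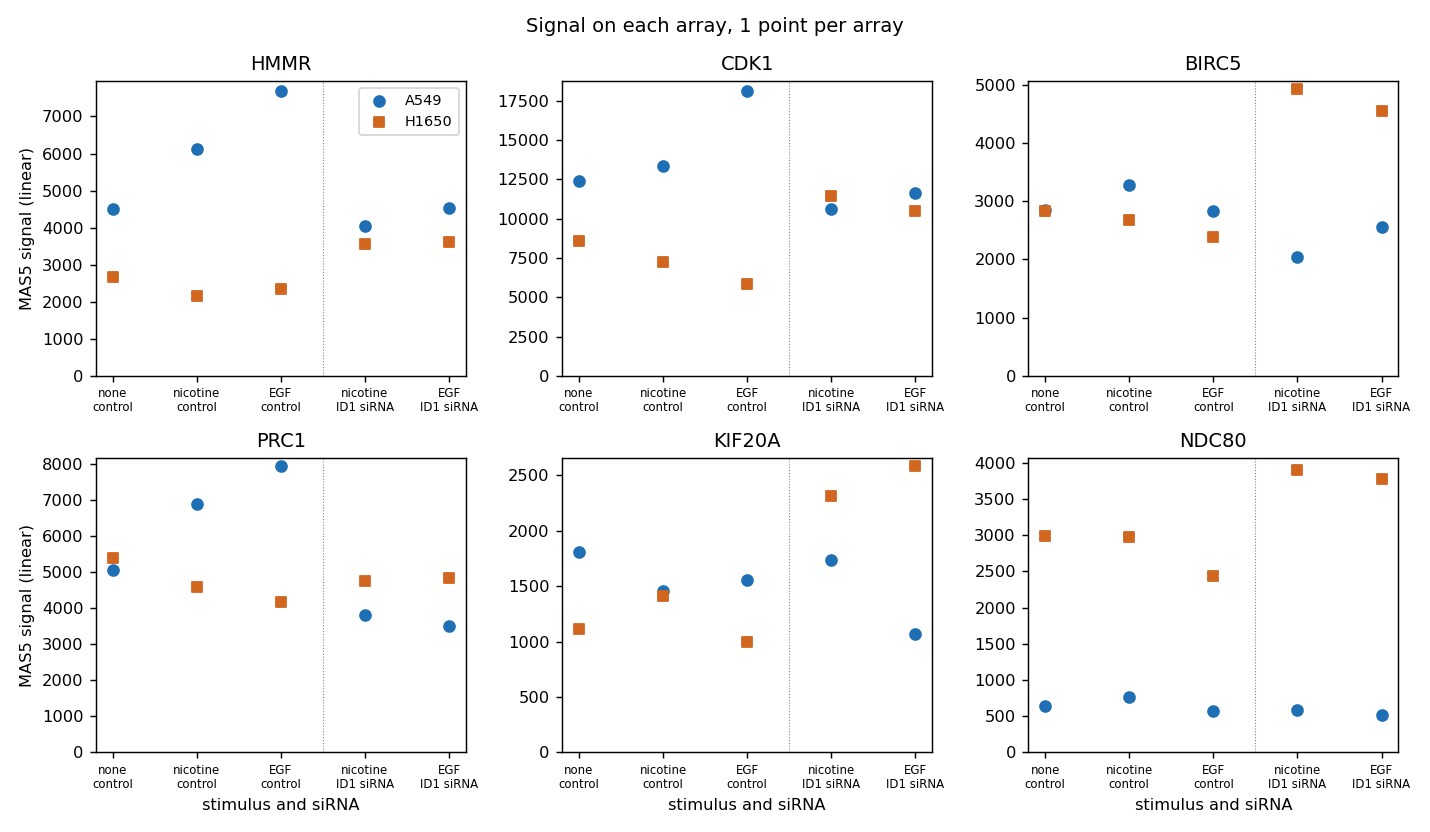
Signal (y axis, linear, from 0) on each array for 6 genes by stimulus and siRNA (x axis), 1 point per array, blue circles for A549 and orange squares for H1650; the dotted line parts control siRNA from ID1 siRNA. For CDK1, HMMR, BIRC5, KIF20A and NDC80 both H1650 squares on the right lie above the 3 on the left, the PRC1 circles run from 3508 to 7953, and the NDC80 circles stay between 517 and 770.3.

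By call, 18 members fell in A549 and rose in H1650, where 0.679% of tested genes did: CDK1, PLK1, PBK, CCNB1, CCNB2, BUB1B, CDC20, KIF11, KIF4A, CENPF, NUF2, BIRC5, CDCA8, TPX2, NUSAP1, ASPM, HMMR and TOP2A. A further 10 were called in A549 alone and 11 in H1650 alone, and CDC25C, FOXM1 and MAD2L1 in neither. Being called in one line alone does not show that the lines differ, and the test of the difference is that given above. Across the 42 members the change in A549 and that in H1650 had a Pearson r of 0.52 and a Spearman rho of 0.54, so the members lowest in A549 tended to be the least raised in H1650. Both estimates come from 1 fit with a shared spread, and genes are not independent replicates. The study itself selected genes changed by more than 2-fold. At that threshold PRC1 under EGF was the only member 2-fold lower in an A549 pair. Of tested genes 1.57% were 2-fold lower in that EGF pair and 1.64% in the nicotine pair. KIF20A and MKI67 under EGF were the only members 2-fold higher in an H1650 pair. Of tested genes 2.09% were 2-fold higher in that EGF pair and 1.83% in the nicotine pair. In both pairs of a line 0 members passed, where 0.559% of tested genes were 2-fold lower in both A549 pairs and 0.479% higher in both H1650 pairs.

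**Figure D3:**
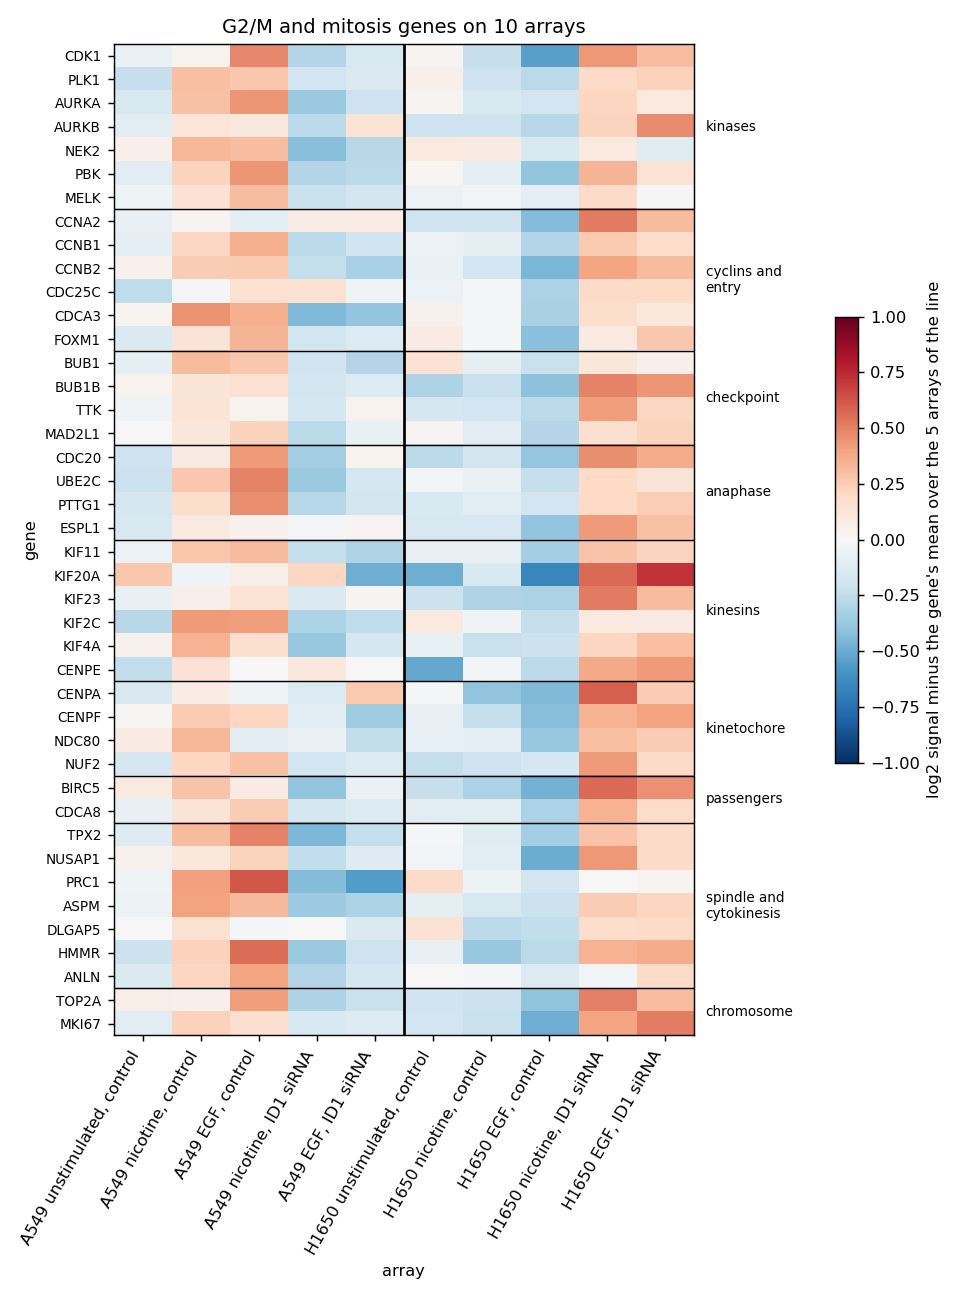
Log2 signal of the 42 genes (rows, by role) on the 10 arrays (columns), each minus the gene's mean over the 5 arrays of its line; red is above and blue below that mean, and the colour scale ends at -1 and 1. In A549 the 2 stimulated controls are red and the ID1 siRNA arrays blue for most rows, and in H1650 the ID1 siRNA arrays are red.

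Other cell cycle genes moved in the same directions. Of 86 tested further mitosis genes, 33 fell and 0 rose in A549, 33 rose and 0 fell in H1650, and the response of 45 was lower in A549, with SPC24 (-1.81), LMNB1 (-1.53) and SPAG5 (-1.30) the lowest. The largest called were CENPU (-0.81 ± 0.10), CENPN and SPC24 in A549, and SPC24 (1.03 ± 0.17), TACC3 and LMNB1 in H1650; the first 3 are kinetochore genes, TACC3 is a spindle protein and LMNB1 encodes lamin B1. CENPN in A549 was at 0.39 when the mean of its probe sets was used, not called, so its sign depends on which probe sets are used. Of 45 genes of G1/S and DNA replication, 19 fell in A549, led by the flap endonuclease FEN1 (-0.98 ± 0.14), and 17 rose in H1650, led by the helicase subunit MCM3 (1.08 ± 0.10), and 28 differed, with GINS2 (-1.34 ± 0.14) lowest. Of 9 CDK inhibitors and pocket proteins, 1 rose in A549: CDKN1A, which encodes p21, by 0.94 ± 0.11 (adjusted p = 0.000635), from 3639.9 and 4019 to 7053 and 7672. The unstimulated A549 control was also high, at 8015. In H1650 CDKN1A was at 4815 and 4434 against 3445 and 3941, a change of -0.33 ± 0.11 that was not called (0.0882), and its response differed between the lines by 1.27 ± 0.15 (0.00165). RBL1, which encodes the pocket protein p107, rose in H1650 by 0.68 ± 0.15 (0.0224).

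The stimuli had no call among the members. For nicotine against no stimulus and for EGF against no stimulus, over both lines, 0 of 42 were called, with medians of 0.11 and 0.05. limma called 0% of tested genes in either comparison. An unadjusted p under 0.05 was found for 1 and 0 members, and for 259 and 943 of the 12515 tested genes. CENPE had the largest value with nicotine, 0.44 ± 0.15, and PTTG1 with EGF, 0.29 ± 0.20, and the lowest with EGF was NDC80, at -0.24 ± 0.14. The 95% intervals of all members lay within -0.68 and 0.84 for nicotine and within -0.63 and 0.82 for EGF. Those are the outermost ends over different members, so they are wider than the interval of any one of them. Without the H1650 unstimulated array, which leaves A549 as the only line with one, KIF2C was called higher with nicotine (0.75, adjusted p = 0.0228) and HMMR with EGF (0.72, adjusted p = 0.0389), where 422 and 657 of 12515 genes were called.

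The pooled estimate joins lines whose medians had opposite signs, each taken against 1 unstimulated array. In A549 that array had an ID1 signal near those of the ID1 siRNA arrays, as given above. In A549 the nicotine control was above the unstimulated control for 40 of 42 members and the EGF control for 37, with medians of 0.28 and 0.34, where 52.2% and 47.4% of tested genes were above. In H1650 the corresponding counts were 11 and 2 of 42, with medians of -0.05 and -0.24 and with 48.6% and 45.7% of tested genes above. KIF2C in A549 went from 1198 to 1949.8 with nicotine and 1939 with EGF, and HMMR from 4501 to 6115 and 7681. CDK1 in H1650 went from 8604 to 7211 and 5816. CENPE and NUF2 were the 2 members above the unstimulated control with EGF in H1650. With nicotine and EGF pooled as stimulated arrays within each line, a comparison chosen after these values were seen, limma called 0 members in A549, in H1650 or in the difference between them, where 0.791%, 0% and 0% of tested genes were called, and 12, 1 and 12 members had an unadjusted p under 0.05. The 1 in H1650 was lower, and the others were higher in A549. The lowest adjusted p in A549 was 0.0802, for KIF2C.

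**Figure D4:**
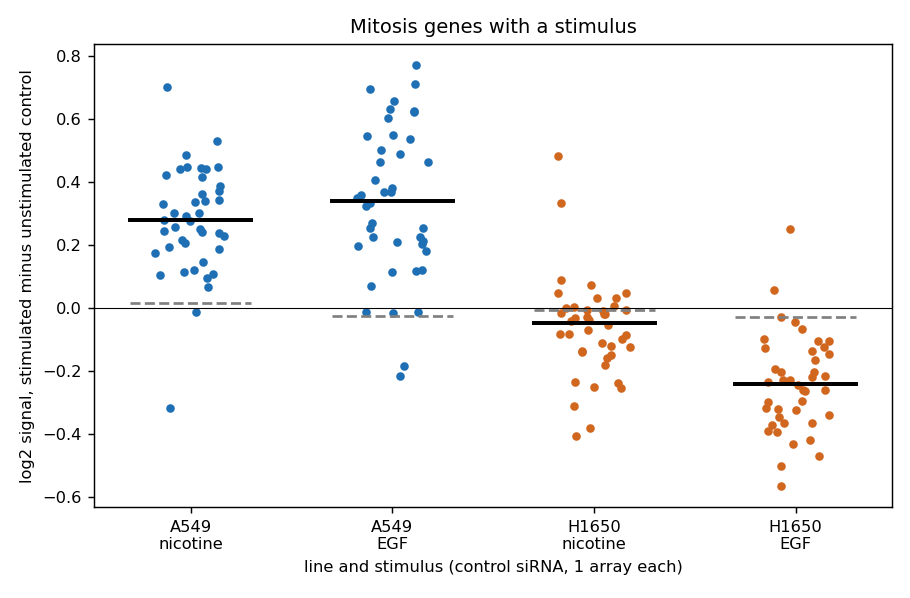
Log2 signal of each of the 42 genes on a stimulated control array minus that on the unstimulated control (y axis) by line and stimulus (x axis), 1 array each; black bars are the members' medians and dashed grey bars the medians of all tested genes. The A549 medians are 0.28 and 0.34 and the H1650 ones -0.05 and -0.24, and no test called a member.

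In A549, then, the high arrays for most members were the stimulated controls. For 32 of 42 members both of these lay above the unstimulated control and above both ID1 siRNA arrays, which held for 21% of tested genes. Both ID1 siRNA arrays lay below all 3 controls for 24 of 42, against 18.7% of tested genes. In H1650 both ID1 siRNA arrays lay above all 3 controls for 37 of 42, all but NEK2, BUB1, KIF2C, PRC1 and ANLN, against 21.5% of tested genes. ID1 itself had the same order in A549, with its unstimulated array nearest to the ID1 siRNA arrays, and the part of that array's state in these counts was not tested.

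EGF and nicotine were compared within each line and siRNA. No member was called in A549 or H1650 or in the difference between them. There limma called 0.032%, 0.216% and 0.0799% of tested genes (0.024%, 0.0719% and 0.0639% higher, and 0.00799%, 0.144% and 0.016% lower). An unadjusted p under 0.05 was found for 3, 3 and 7 members, and for 1198, 1341 and 998 of the 12515 tested genes. The median EGF minus nicotine was 0.06 in A549 and -0.13 in H1650. The highest values in A549 were those of CDC20 (0.36 ± 0.09), CDK1 (0.29 ± 0.13) and HMMR (0.25 ± 0.10), and the lowest those of NDC80 (-0.31 ± 0.12), KIF20A and DLGAP5, a spindle protein. In H1650 NUSAP1 was lowest at -0.32 ± 0.10, followed by PBK and NEK2. EGF was below nicotine with both siRNAs for 26 of 42 members in H1650, against 31.1% of tested genes, and above it with both for 19 of 42 in A549, against 26.4%. In H1650 the median was -0.19 with control siRNA and -0.07 with ID1 siRNA.

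Some members also differed in level between A549 and H1650, in both directions, but a smaller share of them was called than of all tested genes. Over the 5 matched conditions 15 members were lower and 4 higher in A549, 45.2% of the 42 against 63.1% of all tested genes, of which 32.2% were lower and 30.9% higher. With arrays centred on their medians, the genes called went from 3863 higher and 4031 lower to 4578 higher and 3187 lower, and the members to 4 higher and 11 lower. The ACTB ratio, given above, differed between the lines too, and its part was not tested. The spread of this comparison includes the siRNA response, which differed between the lines for 39 members. NDC80, a subunit of the complex by which kinetochores hold microtubules, differed most. Its signals were 647, 770.3, 570.1, 585 and 517 in A549 and 2989, 2970.5, 2434, 3902 and 3779 in H1650, in the order of unstimulated, nicotine and EGF control and ID1 siRNA with nicotine and EGF. The ranges were far apart, and NDC80 was 5.17-fold lower in A549 (log2 -2.37 ± 0.15, adjusted p = 2.98e-06). It was measured by 1 probe set. ANLN was 2.77-fold lower in A549, with a range of 5341 to 8567 against 16425 to 20670.2, and KIF2C 2.52-fold lower. CENPE, TPX2, CDCA8, UBE2C and BUB1 were 1.88 to 2.11-fold lower. PBK, a mitotic kinase also called TOPK, was 2.61-fold higher in A549, with 5211 to 8653 against 1853 to 3093 (log2 1.39 ± 0.20, adjusted p = 0.000317). HMMR was 1.86-fold higher, and CDK1 and TOP2A were higher by 0.62 ± 0.23 and 0.61 ± 0.22. TOP2A was at 0.41, 0.55 and 0.55, not called, when the EGF, nicotine or unstimulated control condition was left out. All 5 A549 arrays lay below all 5 H1650 arrays for 13 members, against 25.3% of tested genes, and above them for 2, PBK and HMMR, against 24.7%. Among the further mitosis genes 37 were lower in A549, led by MYBL2 (-1.91 ± 0.14), which encodes B-MYB, and 12 higher, led by ECT2 (1.31 ± 0.16), a regulator of cytokinesis.

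The size of the line difference depended on the siRNA. The median of A549 minus H1650 over the 42 members was -0.29 without a stimulus, 0.07 and 0.15 in the nicotine and EGF controls, and -0.85 and -0.73 with ID1 siRNA under nicotine and EGF. With ID1 siRNA 40 and 38 of 42 were lower in A549, and in the nicotine and EGF controls 19 and 13 were. The same counts were not made over all tested genes. The stimulated arrays are those of the siRNA comparison, so this pattern restates its difference between the lines. In that difference the median of all tested genes was 0.07, and -0.17 with arrays centred on their medians. The 6 control arrays alone gave 11 members lower and 8 higher in A549, with 57.5% of all tested genes called, and without the EGF control condition the 10-array comparison gave 23 lower and 2 higher, with 59.5% called. It also gave 2 higher without the nicotine control condition (56.1% of genes called) or without the unstimulated one (57.3%). For NDC80 the difference held in every condition, as its arrays show. On the brightest BIRC5 probe set the lines were level without a stimulus (2857 and 2827) and apart with ID1 siRNA. Over all arrays A549 minus H1650 was -0.31 on that probe set and 0.77, -0.23 and 1.02 on the others. The direction of the BIRC5 difference in level thus depends on the probe set.

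**Figure D5:**
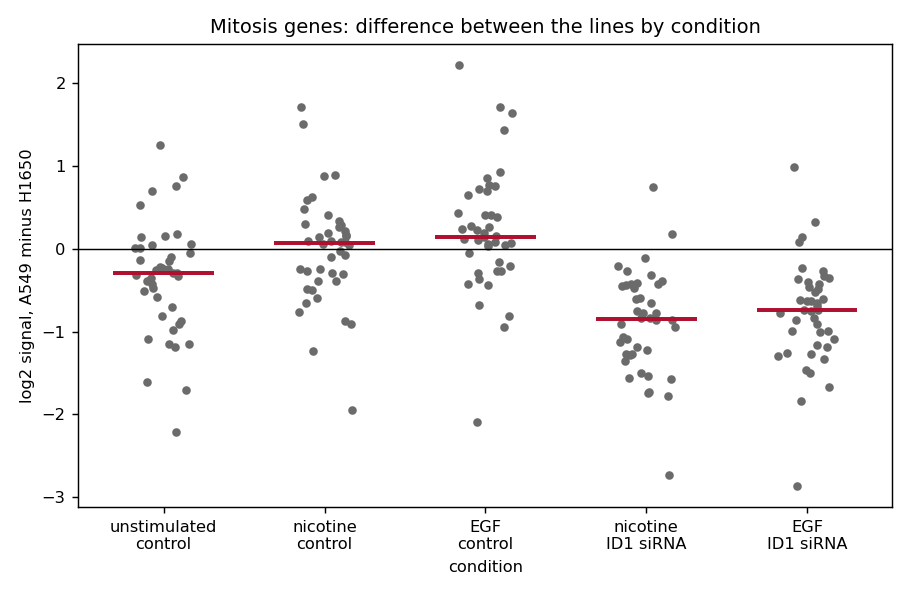
Log2 signal in A549 minus that in H1650 (y axis) for each of the 42 genes in each condition (x axis), 1 array per line and condition; the red bar is the median. The medians are -0.29, 0.07 and 0.15 with control siRNA and -0.85 and -0.73 with ID1 siRNA, and the lowest point in every condition is NDC80.

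Further probe sets were a check within the same arrays. For 22 members, 32 other probe sets passed the filter, and the other 20 members had no second one that did. The members with a second probe set of opposite sign in A549 were ASPM, AURKA, BIRC5, CCNB2, CDC25C, CDK1, CENPF, KIF23 and MAD2L1. In H1650, 31 of the 32 had the sign of the main probe set, with a median of 0.50, and in A549 22 of 32 had it, with a median of -0.22. The H1650 direction was therefore shared by nearly all probe sets and the A549 direction by fewer. With the mean of all probe sets of a gene, 19 members were called lower in A549 and 22 higher in H1650, and 26 in the difference, where 13.7%, 4.34% and 4.69% of tested genes were called.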

How the data were processed

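The 10 samples were hybridised to Affymetrix U133 Plus 2.0 arrays, 1 per line and condition. The deposited values are MAS5 intensities from GCOS 1.4, per the submitters' processing notes; they are linear and scaled to a 2% trimmed mean of 500 on each array, as the deposited values themselves show. No read depth exists, and the number of arrays limits the precision. Each of 41091 probe sets (of 54675) with 1 gene symbol in GEO's platform annotation was kept, 41037 of them renamed by Entrez ID. The brightest probe set, by mean log2, stood for each of 19775 genes, and 12515 genes with a mean log2 of at least 6.06 (signal 66.7) were tested.

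Log2 signals were tested with limma 3.58.1 in R 4.3.3, with intensity trend and Benjamini-Hochberg adjustment: line over 10 arrays with condition as a block (4 residual degrees of freedom), siRNA and EGF against nicotine over 8 stimulated arrays with matched pairs (2), and stimulus against none over 6 control arrays with line as a block (2). The scripts were tested on simulated data. The members and all gene lists were chosen with earlier results of these data known, and the lists support no test. Named were, per comparison, up to 8 called members per direction that moved alike in all pairs, the member with the largest change of each role, the 3 most extreme where under 3 passed, and up to 3 called genes per direction of the other lists; CDC25C, MAD2L1 and others were added to account for all members. Alternatives covered scaling, filter, probe set, added constant, trend, model terms and left-out arrays. Promoters came from RefSeq, GRCh38.p14.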

Additional observations from a re-analysis of the deposited data

Results flagged for a closer look

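The response to ID1 siRNA differed between A549 and H1650, by limma's test of the difference, for 39 of 42 members, all lower in A549, where 4.92% of tested genes were called lower (616, against 1809 with arrays centred on their medians, when 41 members were lower). Among the largest log2 differences were those of HMMR (-1.36), BIRC5 (-1.32) and CDK1 (-1.24), and of CCNB2, TOP2A and TPX2, each at -1.22. KIF20A was at -1.19, CENPF at -1.18, CDC20 at -1.12 and BUB1B at -1.08. All of these except KIF20A were lower in both A549 pairs and higher in both H1650 pairs.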

How the results depend on the processing

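Without the intensity trend, 10 members were called lower in A549, 0 higher in H1650, 1 lower in the difference, and 2 higher in A549 than in H1650. The 6 control arrays alone gave 8 members higher in A549. Leaving out 1 pair, condition or array at a time, the members called ranged from 17 to 30 lower in A549 (17 without the A549 EGF pair), 15 to 33 higher in H1650 (15 without the H1650 EGF pair), and 35 to 39 lower in the difference. Between the lines 2 to 4 were higher and 14 to 23 lower in A549. Against no stimulus, 0 to 1 were higher with nicotine and 0 to 2 with EGF, the last of each without the H1650 unstimulated array, when 422 and 657 of 12515 genes were called. With the mean of all probe sets, 38 members kept the sign of their siRNA change in A549. Among the genes named by size of change in that comparison, BUB1 (0.35), BIRC5 (0.0057) and CENPN (0.39) were higher, none called. CENPN is not a member, and BUB1 and BIRC5 are not all of the members that changed sign. For BUB1 this came from probe sets under the filter, since both above it were lower. The cause of the other changes was not tested. Under the other scalings, filters, added constant and model terms, the counts of members called stayed within 1.5 times those reported. With 1 array per line and condition, spread between cultures was not measured.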
